A study of Mus musculus with 16 samples.

Results

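The RNA levels of 9 enzyme genes of amino acid metabolism were followed in mIMCD3 cells exposed to doxycycline (DOX). The genes were listed by name: Asns for asparagine, Aldh18a1, Pycr1 and Prodh for proline, Cbs and Cth for the transsulfuration pathway, Gpt2 and Got1 for transamination, and Glul for glutamine. All 9 were found among the 54393 genes of the count table under the identifiers that the TPM table pairs with these symbols. All 9 also passed the limit on low values, a CPM (count scaled to library size) of 1 or more in at least 4 libraries, as did 13234 genes in all.

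mIMCD3 is an epithelial line derived from the inner medulla of the kidney of an SV40 transgenic animal. The cells used here are labelled wild type, and no inducible construct is named for these libraries. All cells grew on permeable filters for 10 days in an epithelial medium with 5% serum, growth factors and a glutamine dipeptide, and then received 2 µg/mL DOX or its vehicle DMSO, renewed every day. The 4 groups were DMSO for 3 days, DOX for 3 days, DMSO for 6 days and DOX for 6 days, each with 4 poly(A) RNA libraries. The labels number the libraries from 1 to 4 and do not say whether they came from separate cultures, so p-values measure the spread between these libraries, which may be technical.

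Libraries held between 16933343 and 23960860 estimated counts. Within a group, the lowest correlation of log2 CPM between libraries lay between 0.981 and 0.989. Replicate 1 of DMSO at 6 days stood apart on the second principal component, at -24.8 against 10.7 to 16.3 for the rest of its group. Replicate 1 of DMSO at 3 days lay at 14.2 against -17.4 to -6.51 for the rest of its group, and DOX at 6 days split into 17.9 and 15.9 for replicates 1 and 2 and -8.43 and -9.16 for replicates 3 and 4. Leaving out either of these DMSO libraries changed no call of a member in any comparison, and leaving out 1 of these DOX libraries changed none between DOX and DMSO. Of the genes listed for collecting duct epithelium, Krt8, Krt18, Epcam, Cldn4 and Cldn7 were above 100 TPM (a level per transcript length) in every group mean. The paper counts Krt18 as a general epithelial marker and found no enriched transcripts particular to the medullary collecting duct. Aqp2, Avpr2, Scnn1b and Scnn1g, which mark principal cells, were under 1 TPM in every group mean. Group means were 0.93 to 2.97 TPM for Scnn1a, 0.75 to 1.27 TPM for Aqp3 and 1.31 to 2.82 TPM for Gata3. Of the 11 tested genes of the collecting duct list, 5 were lower with DOX at 3 days and 6 at 6 days, and none was higher. Of all tested genes, 7.22% and 11.6% were lower. Summed TPM per library was 0.131 to 1.15 for 6 fibroblast markers and 0.511 to 1.46 for 5 endothelial markers. It was 3.91 to 26.0 for 7 proximal tubule markers. The 5 leukocyte markers summed to 17.3 to 24.6 TPM in DMSO and 7.86 to 12.7 in DOX, nearly all of it Cd68, a lysosomal protein; Ptprc, Adgre1, Cd3e and Lyz2 had group means under 0.3 TPM, and Adgre1 and Cd3e were listed at 0 in at least 1 group. The part of these markers in the results below was not tested.

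Asparagine synthetase, encoded by Asns, makes asparagine from aspartate with the amide group of glutamine. Proline is made from glutamate by the enzymes of Aldh18a1 and Pycr1 and is broken down in mitochondria by the enzyme of Prodh, while transsulfuration carries sulfur from homocysteine to cysteine through the enzymes of Cbs and Cth. Several of these genes are known targets of ATF4, the transcription factor of the integrated stress response, which binds composite C/EBP-ATF elements (CARE).

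The DNA before the gene starts is shown for the members that hold the CARE core. Because several of these genes are known targets of ATF4, the choice of the genes is not independent of this core. The core TGATGNAA was searched on both strands of the 250 bases before the start of each gene in the RefSeq promoters of GRCm38.p6. It was found in 3 of the 8 members with a promoter in that table, Asns, Pycr1 and Got1, and in 3.45% of all 32851 promoters (1134). The genes of these 3 members all lie on the minus strand. The stretches are printed 5′ to 3′ on the strand of the gene, with the core in capitals; in Got1 the core lies on the other strand, so that its reverse complement is in capitals.
Asns, chr6:7693214-7693243, minus strand: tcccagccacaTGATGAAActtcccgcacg
Pycr1, chr11:120643818-120643877, minus strand: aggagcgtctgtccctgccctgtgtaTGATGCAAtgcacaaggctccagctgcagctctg
Got1, chr19:43524674-43524733, minus strand: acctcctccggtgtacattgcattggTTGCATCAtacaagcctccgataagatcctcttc
Counted from the gene start, the first base in capitals lay at -23 in Asns, -103 in Pycr1 and -102 in Got1. The start is that of RefSeq, and the stretch of Asns lies inside the longer gene of GENCODE. The match is a description of letters, and Aldh18a1, Prodh, Cbs, Gpt2 and Glul hold no such letters in this window.

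In GENCODE M21 on GRCm38 the 9 genes are protein coding and spread over 8 chromosomes. Aldh18a1 (chromosome 19, 40550257 to 40588463, minus strand) and Got1 (chromosome 19, 43499752 to 43524605, minus strand) share a chromosome. Asns lies on chromosome 6 (7675169 to 7693254, minus strand), Pycr1 on chromosome 11 (120635712 to 120643769, minus strand) and Prodh on chromosome 16 (18060357 to 18090203, minus strand). Cbs lies on chromosome 17 (31608894 to 31637238, minus strand), Cth on chromosome 3 (157894248 to 157925077, minus strand), Gpt2 on chromosome 8 (85492576 to 85527560, plus strand) and Glul on chromosome 1 (153899944 to 153909723, plus strand). Values are summed over all transcripts of a gene. Exons of Glul overlap those of Teddm2 on the opposite strand over 116 bases and the microRNA gene Mir8114 over 93 bases. The kit marks strand, but the strand setting of the quantification is not given in the sources used here, so reads of Glul and Teddm2 from that stretch may not have been told apart. No other member shared exonic bases with another gene.

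With DMSO alone, the members differed widely in level per transcript length. Over the 8 DMSO libraries Asns was the most abundant, at 144 ± 16.6 TPM (SD, n = 8), with 119 to 164 TPM. Got1 followed at 67.2 ± 7.41 TPM and Aldh18a1 at 67.0 ± 7.43 TPM, and their ranges of 53.8 to 77.4 and 51.7 to 75.3 TPM did not separate them. Gpt2 at 26.0 ± 3.92 TPM and Cth at 20.7 ± 3.15 TPM overlapped each other and lay below both. Prodh at 10.8 ± 1.89 TPM, Pycr1 at 8.87 ± 2.17 TPM and Glul at 7.54 ± 1.82 TPM overlapped as well. Cbs was the lowest, at 2.87 ± 0.589 TPM, between 1.78 and 3.42 TPM, and rested on 86.0 to 133 estimated counts per DMSO library, against 3236 to 5103 for Asns. The limit set by 3 counts was 0.125 to 0.177 CPM per library, far below every member's value, and it covers counting error only.

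**Figure D1:**
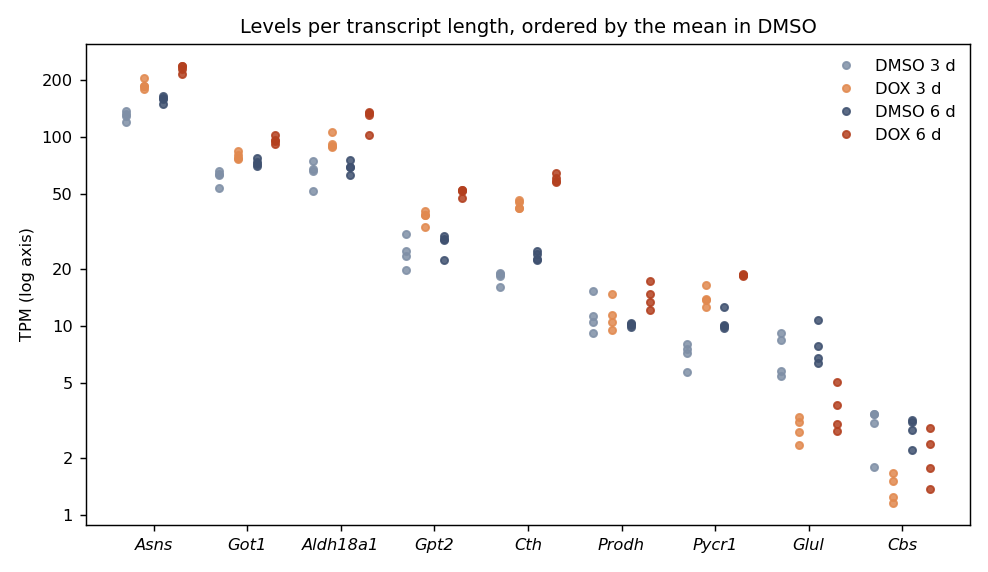
TPM of the 9 genes on a log axis, ordered by the mean over the 8 DMSO libraries, with 1 point per library and the 4 groups side by side. Asns is at the top with 119 to 164 TPM in DMSO, Cbs at the bottom with 1.78 to 3.42 TPM, and the DOX points of Asns, Pycr1, Cth, Gpt2, Aldh18a1 and Got1 lie above the DMSO points of the same day.

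The question of the DOX comparisons was which RNAs differ when cells with no named inducible construct are exposed to the inducer. Genes were called when edgeR's glmTreat found a change beyond 1.2-fold at a Benjamini-Hochberg adjusted p under 0.05. At 3 days, 6 of the 9 members rose and 1 fell; of all tested genes 12.5% were called, 5.30% higher and 7.22% lower. At 6 days, 7 members rose and 1 fell, where 21.6% of all tested genes were called, 10.0% higher and 11.6% lower. The median log2 fold change of the members was 0.75 at 3 days and 0.58 at 6 days, while that of all tested genes was 0.00 at both times. In CPM scaled by TMM, the DOX and DMSO libraries did not overlap for 7 members at 3 days and for all 9 at 6 days, against 38.6% and 43.0% of all tested genes. The members were chosen with earlier results of these data known, so setting them beside all tested genes is a description and no test. In RNA from whole wells, a change in the level per cell cannot be told apart from a change in the share of cells that carry the RNA.

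**Figure D2:**
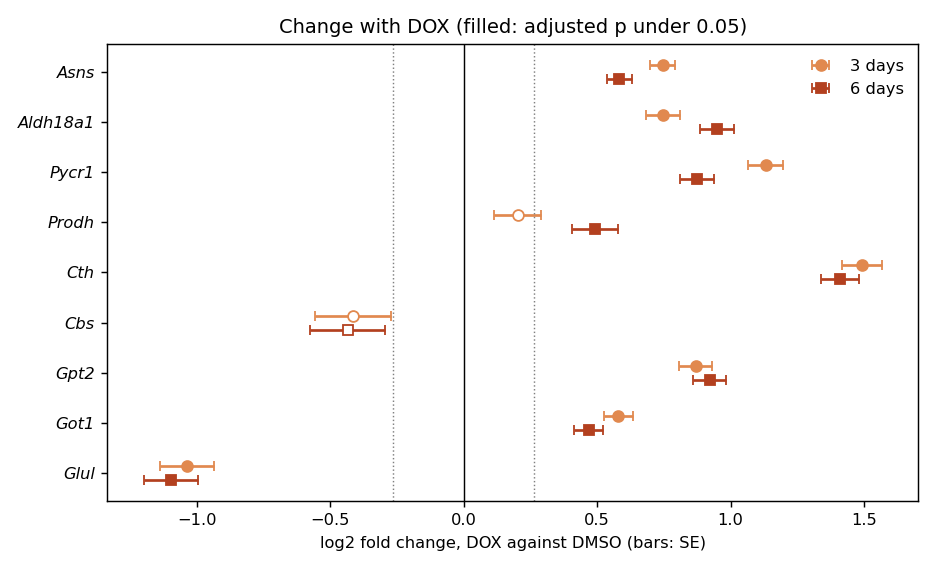
Log2 fold change of DOX against DMSO with its SE for each member at 3 days (circles) and 6 days (squares), filled where the adjusted p was under 0.05, with dotted lines at 1.2-fold. Asns, Aldh18a1, Pycr1, Cth, Gpt2 and Got1 are filled above 0 at both times, Prodh only at 6 days, Glul is filled below 0 at both times and Cbs is open at both.

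Asparagine synthetase RNA was higher with DOX at both times. At 3 days Asns stood at 198, 202, 198 and 194 CPM in the DMSO libraries 1 to 4 and at 318, 343, 326 and 343 CPM in the DOX libraries. At 6 days it stood at 237, 235, 244 and 235 CPM with DMSO and at 361, 350.2, 363 and 349 CPM with DOX. The lowest DOX library was thus above the highest DMSO library of either day. The fold was 1.68 at 3 days (log2 fold change 0.75, SE 0.05, edgeR adjusted p = 1.62e-08) and 1.50 at 6 days (log2 fold change 0.58, SE 0.05, edgeR adjusted p = 1.47e-06).

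Both members of proline synthesis, Aldh18a1 and Pycr1, rose, and the member of proline breakdown, Prodh, rose at 6 days. Aldh18a1 encodes the enzyme that turns glutamate into the precursor of proline and ornithine. Its DMSO libraries held 147, 170.0, 159 and 176 CPM at 3 days, and its DOX libraries 269.8, 284, 267 and 274 CPM. At 6 days the values were 182, 156, 169.6 and 167 CPM with DMSO and 298, 324, 341 and 338 CPM with DOX. DOX libraries lay above all DMSO libraries at both times, 1.68-fold at 3 days (edgeR adjusted p = 9.29e-07) and 1.93-fold at 6 days (edgeR adjusted p = 3.69e-09).

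Pycr1 encodes a mitochondrial reductase that makes proline in the last step. At 3 days it held 9.55, 11.1, 10.1 and 10.7 CPM with DMSO and 21.9, 22.9, 22.9 and 23.5 CPM with DOX. At 6 days it held 14.5, 14.4, 13.6 and 14.2 CPM with DMSO and 25.0, 26.2, 26.9 and 26.1 CPM with DOX. No DOX library overlapped a DMSO library of either day. The fold was 2.19 at 3 days (log2 fold change 1.13, SE 0.07, edgeR adjusted p = 7.96e-10) and 1.83 at 6 days (log2 fold change 0.87, SE 0.06, edgeR adjusted p = 1.47e-08).

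Prodh, whose product oxidizes proline, changed less. At 3 days its DMSO libraries held 14.4, 15.7, 17.1 and 16.5 CPM and its DOX libraries 16.5, 19.2, 16.4 and 21.3 CPM, so the groups overlapped and the call was not made (1.15-fold, edgeR adjusted p = 0.952). At 6 days the DMSO libraries held 13.9, 16.7, 15.8 and 14.9 CPM and the DOX libraries 19.7, 22.5, 22.6 and 21.7 CPM. These groups did not overlap, and the 1.41-fold difference passed the test (log2 fold change 0.49, SE 0.09, edgeR adjusted p = 0.0104). With DESeq2 in place of edgeR the adjusted p at 6 days was 0.101, and on the TPM scale with limma it was 0.507, so that this call was lost under both.

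Of the genes of the transsulfuration pathway, Cth rose at both times and Cbs was not called at either. Cth encodes cystathionine gamma-lyase, which releases cysteine, and it had the highest fold among the members. Its DMSO libraries held 24.4, 26.0, 26.2 and 23.9 CPM at 3 days and its DOX libraries 59.9, 76.0, 68.9 and 78.0 CPM. At 6 days the DMSO libraries held 33.6, 32.0, 30.3 and 31.3 CPM and the DOX libraries 87.9, 82.5, 88.3 and 79.2 CPM. The DOX libraries were clear of all DMSO libraries, 2.81-fold at 3 days (log2 fold change 1.49, SE 0.07, edgeR adjusted p = 6.02e-11) and 2.66-fold at 6 days (log2 fold change 1.41, SE 0.07, edgeR adjusted p = 2.01e-11). By p, Cth ranked 4 among the 13234 genes tested at 3 days and 29 at 6 days.

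Cbs encodes cystathionine beta-synthase, the enzyme before cystathionine gamma-lyase in the pathway. At 3 days its DMSO libraries held 5.88, 4.01, 5.49 and 5.78 CPM and its DOX libraries 4.31, 4.13, 3.90 and 3.44 CPM, with DMSO library 2 inside the range of DOX. At 6 days the DMSO libraries held 4.81, 5.66, 5.42 and 5.55 CPM and the DOX libraries 3.42, 4.64, 4.48 and 3.29 CPM, which did not overlap. The log2 fold changes of -0.41 (SE 0.14, edgeR adjusted p = 0.242) and -0.43 (SE 0.14, edgeR adjusted p = 0.146) did not pass the 1.2-fold test at either time. Without the fold-change threshold the adjusted p of Cbs was 0.0224 at 3 days and 0.0138 at 6 days, a test that 45.2% and 50.6% of all tested genes passed.

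Both transaminase genes among the members, Gpt2 and Got1, rose. Gpt2 encodes mitochondrial alanine aminotransferase. It held 56.2, 64.5, 62.3 and 66.3 CPM with DMSO and 108, 121, 111 and 116 CPM with DOX at 3 days. At 6 days it held 66.0, 66.4, 75.6 and 65.8 CPM with DMSO and 123, 133, 135 and 128 CPM with DOX. The groups were apart at both times, 1.83-fold (edgeR adjusted p = 3.98e-08) and 1.89-fold (edgeR adjusted p = 4.35e-09).

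Got1 encodes cytosolic aspartate aminotransferase. Its DMSO libraries held 96.5, 102, 101 and 93.1 CPM at 3 days and its DOX libraries 138, 148, 146 and 155 CPM. At 6 days the DMSO libraries held 118, 114, 109.7 and 111 CPM and the DOX libraries 166, 154, 163 and 145 CPM. DOX exceeded DMSO in every library, 1.49-fold at 3 days (edgeR adjusted p = 3.02e-05) and 1.38-fold at 6 days (edgeR adjusted p = 8.73e-04).

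Glul was the one member that fell. It encodes glutamine synthetase, which makes glutamine from glutamate and ammonia. At 3 days its DMSO libraries held 13.9, 13.0, 15.9 and 15.9 CPM and its DOX libraries 7.21, 6.43, 7.54 and 7.48 CPM. At 6 days the DMSO libraries held 15.0, 14.4, 18.0 and 16.8 CPM and the DOX libraries 6.99, 8.67, 6.88 and 7.36 CPM. Every DOX library lay below every DMSO library, at 0.488 of the DMSO level at 3 days (log2 fold change -1.04, SE 0.10, edgeR adjusted p = 2.30e-06) and 0.468 at 6 days (log2 fold change -1.10, SE 0.10, edgeR adjusted p = 2.24e-07).

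**Figure D3:**
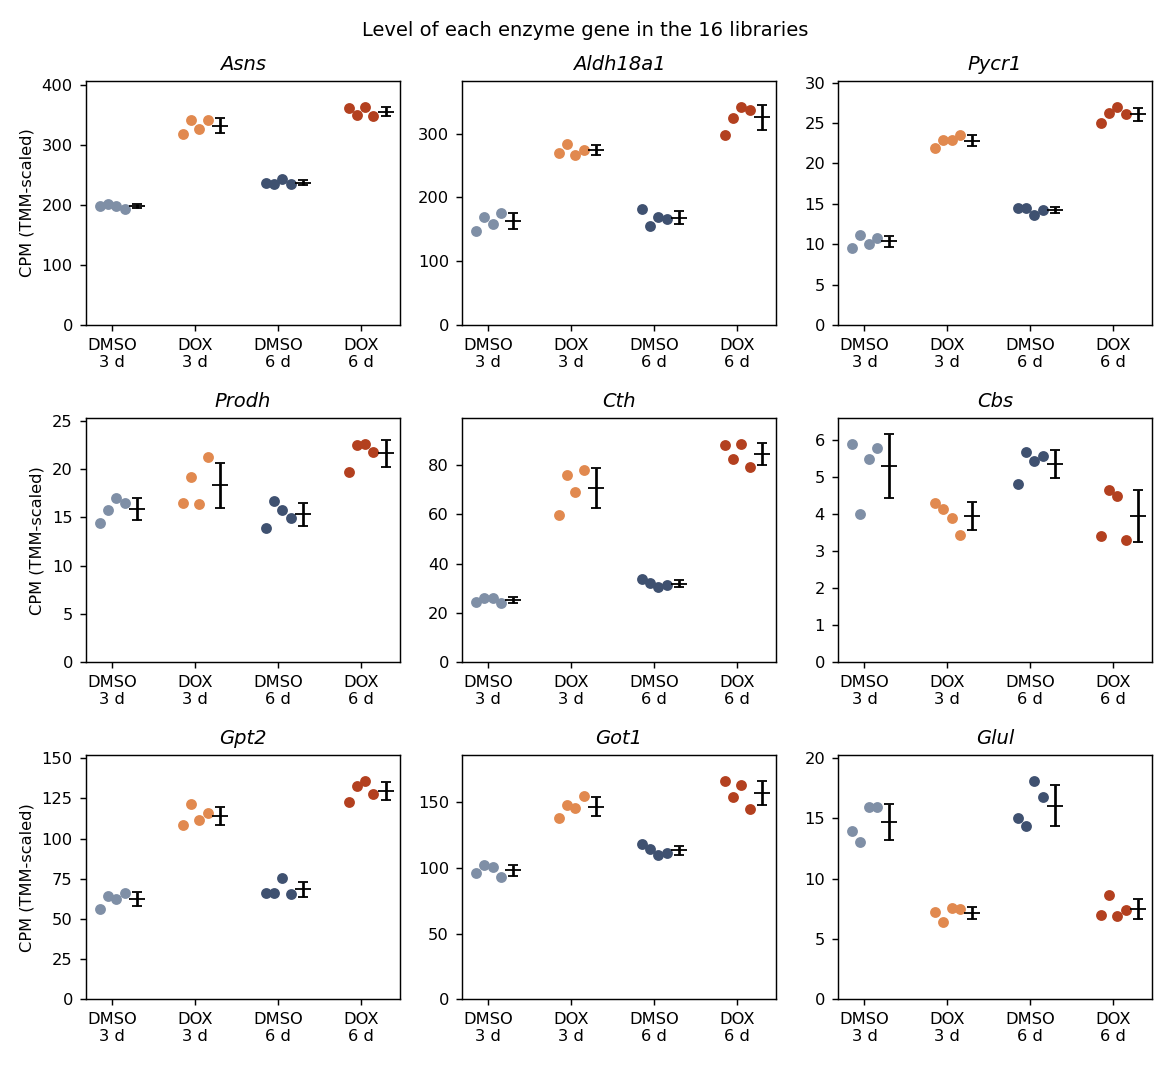
CPM scaled by TMM of each member in the 16 libraries, with 1 point per library and the group mean ± SD beside it; each axis starts at 0. Asns, Aldh18a1, Pycr1, Cth, Gpt2 and Got1 have both DOX groups above both DMSO groups, Glul has them below, and the groups of Prodh and Cbs at 3 days overlap.

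The same members were tested on the TPM scale by an exact two-sided permutation test of 4 against 4 libraries, whose smallest p is 0.0286. At 3 days 8 of the 9 members reached this p and at 6 days also 8, against 25.2% and 35.0% of all tested genes, and the p-values are not adjusted. The exception was Prodh at 3 days, at 11.6 ± 2.26 TPM with DOX and 11.5 ± 2.65 TPM with DMSO (exact permutation p = 0.943, n = 4 each). At 6 days it was Cbs, at 2.10 ± 0.668 TPM with DOX and 2.82 ± 0.445 TPM with DMSO (exact permutation p = 0.143, n = 4 each). At 3 days Cbs stood at 1.66, 1.24, 1.51 and 1.16 TPM with DOX and at 3.42, 1.78, 3.42 and 3.08 TPM with DMSO, which did not overlap (exact permutation p = 0.0286), so the scales differ on where Cbs separates. On the log2(TPM + 1) scale the median of all tested genes moved by -0.15 at 3 days and -0.05 at 6 days, so TPM differences are relative to that shift, and limma called 12.4% of its 686 genes higher at 3 days against 42.3% of 1658 in edgeR. At 6 days these shares were 28.8% of 1295 and 46.4% of 2856. On that scale Aldh18a1 (log2 difference 0.53, limma adjusted p = 0.144), Gpt2 (0.61, limma adjusted p = 0.0561) and Got1 (0.37, limma adjusted p = 0.405) did not pass at 3 days, nor did Got1 at 6 days (0.39, limma adjusted p = 0.201), though each kept its direction. Asns, Pycr1, Cth and Glul passed on both scales at both times.

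In vehicle alone, no member was called between 6 and 3 days, as was no other tested gene (0 of 13234; 172 had an unadjusted p under 0.05, and DESeq2 and limma also called 0). The libraries of 6 days still lay wholly above those of 3 days for 4 members, Asns, Pycr1, Cth and Got1, a separation that 12.2% of all tested genes showed in either direction. Pycr1 went from 10.4 ± 0.690 to 14.2 ± 0.389 CPM (SD, n = 4; 1.37-fold, SE of the log2 value 0.07) and ranked 4 by p among all tested genes. Cth went from 25.1 ± 1.14 to 31.8 ± 1.37 CPM and Asns from 198 ± 3.11 to 238 ± 4.29 CPM. Without the fold-change threshold these 3 genes passed, with edgeR adjusted p = 0.00686 for Pycr1, 0.0154 for Asns and 0.0468 for Cth, as did 0.468% of all tested genes (62). With DOX, 5 members lay wholly higher at 6 than at 3 days, Asns, Aldh18a1, Pycr1, Cth and Gpt2, against 25.4% of all tested genes in either direction.

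Whether the DOX effect itself differed between the times was tested directly. None of the 9 members passed, while 17.0% of all tested genes did, by edgeR's test without a threshold at an adjusted p under 0.05. Of the members, 4 had an unadjusted p under 0.05: Pycr1, whose log2 fold change was lower by 0.26 at 6 days (value -0.26, SE 0.09, edgeR adjusted p = 0.0538), Asns (-0.16, SE 0.07, edgeR adjusted p = 0.0896), Prodh (0.29, SE 0.12, edgeR adjusted p = 0.108) and Aldh18a1 (0.20, SE 0.09, edgeR adjusted p = 0.117). Pycr1 lay close to the limit and passed it under other settings, for instance with DESeq2's size factors in edgeR (adjusted p = 0.0470). For Pycr1 and Asns, the vehicle groups also differed between the times, though only in the test without the fold-change threshold, as given above. Each DOX effect is measured against its own vehicle group.

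The order of the 4 groups was the same for Asns, Aldh18a1, Pycr1, Cth, Gpt2 and Got1: DMSO at 3 days, DMSO at 6 days, DOX at 3 days, DOX at 6 days. In this order every neighbouring pair was apart for Asns, Pycr1 and Cth. The 2 DMSO groups overlapped for Aldh18a1 and Gpt2, and the 2 DOX groups for Got1. For Glul the order was DOX at 3 days (7.16 ± 0.513 CPM), DOX at 6 days (7.47 ± 0.821), DMSO at 3 days (14.7 ± 1.48) and DMSO at 6 days (16.04 ± 1.68), and the only gap lay between DOX and DMSO. For Prodh and Cbs every neighbouring pair overlapped.

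Across the 16 libraries, Asns was most like Pycr1 among all tested genes (Pearson r of log2 CPM 0.992). The next were Ghitm (0.991), Cth (0.991), Stbd1 (0.990), Nars (0.989), Got1 (0.987), Hspbap1 (0.986), Farsb (0.984), Mipol1 (0.983) and Gars (0.982). Of these, Nars, Farsb and Gars encode tRNA synthetases. Aldh18a1 was closest to Pdzd7 (0.995), Eif3c (0.992) and Recql4 (0.991), and Gpt2 to Cyb5r1 (0.990), Pdzd7 (0.989) and Lars (0.989). Got1 was closest to Cth (0.987), Asns (0.987) and Farsb (0.986), and Pycr1 to Asns (0.992), Farsb (0.984) and Cth (0.982). Cth had Stbd1 (0.992), Nars (0.991) and Ghitm (0.991) as its nearest genes. Glul was closest to Fos (0.982), Sult1d1 (0.981) and Sgk1 (0.977), Cbs to Zkscan5 (0.904), Wee1 (0.869) and Fos (0.860), and Prodh to Unc5b (0.941), Myd88 (0.936) and Cdc42se2 (0.923). The 16 points fall into the 4 groups and share their libraries and scaling, so these values mostly describe the difference between groups and carry no test.

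Within groups the likeness looked different. After the group mean was subtracted from each library, Asns and Pycr1 correlated at 0.171, Asns and Aldh18a1 at 0.103 and Cth and Pycr1 at 0.385. Cth and Got1 kept 0.872 (0.987 before), Asns and Cth 0.785 (0.991 before) and Asns and Got1 0.677. Aldh18a1 and Pycr1 kept 0.668, and Aldh18a1 and Gpt2 0.632, while Aldh18a1 and Got1 stood at -0.098 against 0.932 before. Prodh and Gpt2 stood at 0.606 and Pycr1 and Gpt2 at 0.474. For Aldh18a1, Pycr1, Gpt2 and Prodh alike, replicate 1 was the lowest library of DMSO at 3 days and of DOX at 6 days. The part of these libraries in the correlations was not tested. The correlations are again descriptions, of selected pairs, over the same 16 libraries.

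**Figure D4:**
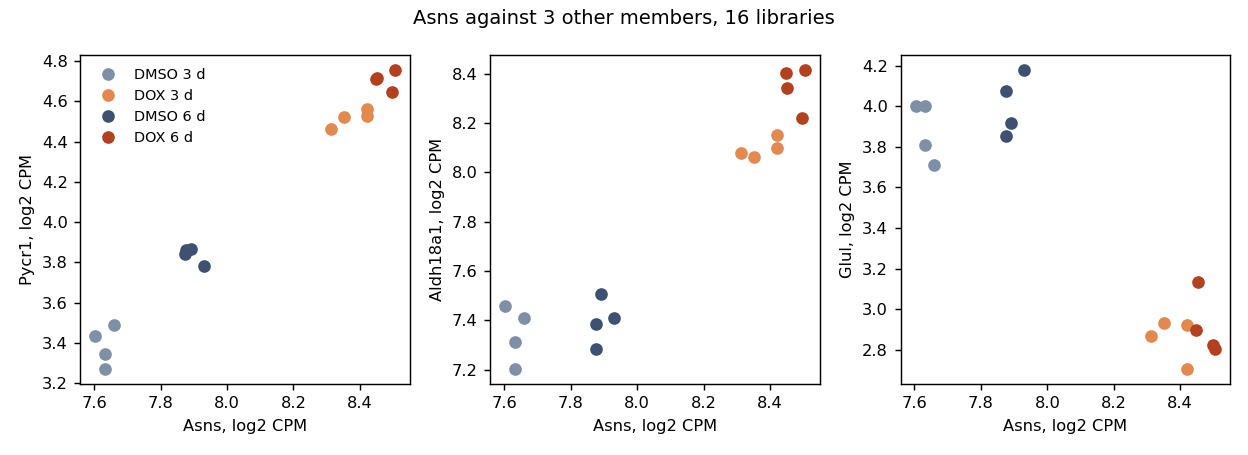
Log2 CPM of Pycr1, Aldh18a1 and Glul against that of Asns in the 16 libraries, coloured by group; no axis starts at 0. The groups form separate clouds, the DOX clouds are at higher Asns with higher Pycr1 and Aldh18a1 and lower Glul, and within a cloud Asns and Pycr1 show little relation (0.171 after group means were subtracted).

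Related enzymes outside the 9 were described by lists. Of 9 tested genes of proline and ornithine metabolism, 1 was higher and 2 were lower at 3 days, and 1 was higher and 1 lower at 6 days, with a median log2 fold change of -0.11 at 6 days. At 6 days Lap3, a leucine aminopeptidase, rose (log2 fold change 0.47, edgeR adjusted p = 0.00277). Arg2, the mitochondrial arginase, fell (-0.76, edgeR adjusted p = 5.36e-05). At 3 days Lap3 was again the gene that rose, and the genes that fell, named after their values were seen, were Arg2 (-0.50, edgeR adjusted p = 0.0275) and Aldh4a1 (-0.69, edgeR adjusted p = 1.07e-04), whose product acts after that of Prodh in proline breakdown. The DOX effect on Aldh4a1 differed between the times (0.57, edgeR adjusted p = 0.00299), and its log2 fold change was -0.12 at 6 days (edgeR adjusted p = 1.00). Pycrl, named after its values were seen for comparison with Pycr1, was not called at 3 days (0.13) or at 6 days (0.06). With DMSO its group means were 33.5 TPM at 3 days and 39.3 TPM at 6 days, where those of Pycr1 were 7.12 and 10.6 TPM.

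Of 17 tested genes of asparagine, aspartate, alanine, glutamine and glutamate metabolism, 2 rose at 3 days and 5 at 6 days, and none fell, with a median of 0.21 at 6 days. The genes with the highest change at 6 days were Asrgl1 (0.93, edgeR adjusted p = 0.00509), an asparaginase, Cad (0.70, edgeR adjusted p = 4.83e-07), which starts pyrimidine synthesis from glutamine and aspartate, and Nars2 (0.47, edgeR adjusted p = 0.0425), the mitochondrial asparaginyl-tRNA synthetase. Asrgl1 was scarce, at 0.704 TPM with DMSO and 0.968 TPM with DOX at 6 days (group means). Got2 and Gpt, named after their values were seen for comparison with Got1 and Gpt2, were not called at 3 days (0.21 and 0.28). At 6 days Got2 was called (0.37, edgeR adjusted p = 0.0208) and Gpt was not (0.12).

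Of 18 tested genes of methionine and sulfur amino acid metabolism, 4 rose and 3 fell at 3 days, and 6 rose and 2 fell at 6 days, with a median of 0.06. Mtr, methionine synthase (0.94, edgeR adjusted p = 8.90e-07), Tst, a mitochondrial thiosulfate sulfurtransferase (0.77, edgeR adjusted p = 2.79e-04), and Suox, sulfite oxidase (0.56, edgeR adjusted p = 0.00980), rose most at 6 days. The genes that fell were Gclm (-0.73, edgeR adjusted p = 1.13e-06) and Gclc (-0.61, edgeR adjusted p = 7.25e-05), the subunits of the enzyme that joins cysteine to glutamate in glutathione synthesis.

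Among 15 regulators of the integrated stress response, 5 rose and 1 fell at 3 days, and 6 rose and 1 fell at 6 days, with medians of 0.30 and 0.35. Ppp1r15a, which directs the phosphatase that reverses eIF2α phosphorylation, rose by 1.43 on the log2 scale at 6 days (edgeR adjusted p = 1.68e-13), Trib3, a pseudokinase, by 1.27 (edgeR adjusted p = 1.29e-09) and Cebpb, a C/EBP factor, by 0.81 (edgeR adjusted p = 0.00581). Eif2ak3, which encodes the kinase PERK, fell (-0.79, edgeR adjusted p = 2.62e-05). Atf4, named here for its role after its values were seen, was higher at 3 days (log2 fold change 0.60, edgeR adjusted p = 8.56e-05) and stood at 0.35 at 6 days (edgeR adjusted p = 0.106). These lists are described beside the background shares of 12.5% and 21.6%, and no list was tested as a set.

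**Figure D5:**
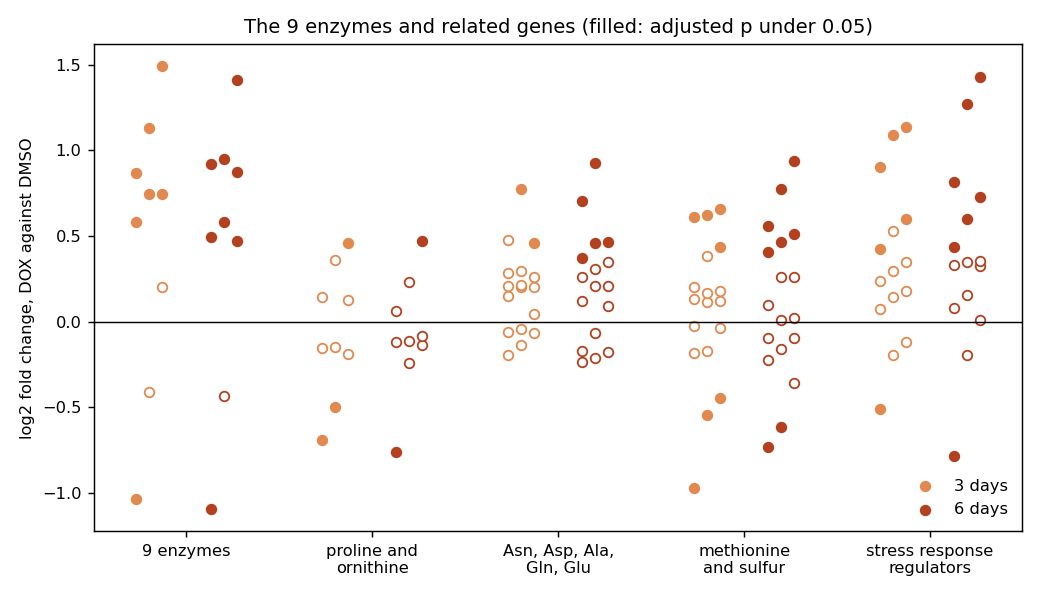
Log2 fold change of DOX against DMSO at 3 and 6 days for the tested genes of 5 lists, with filled points where the adjusted p was under 0.05. Of the 9 enzymes 7 points are filled at 3 days and 8 at 6 days, and of the 9 proline and ornithine relatives 3 are filled at 3 days and 2 at 6 days, on both sides of 0.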

How the data were processed

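The tables hold poly(A) RNA-seq of 16 libraries, 4 for each of 4 groups taken from the sample labels. Reads were aligned to GRCm38.p6 with STAR 2.6.0c, and the submitters' processing notes name Salmon 0.14.10. The authors' estimated counts per gene are not normalized and hold fractions, and the deposited TPM values are per transcript length. The strand setting and annotation release are not given in the sources used here. All 54393 identifiers of the count table, with their versions, are in GENCODE M21, and 53354 are in the TPM table. No reads were counted again.

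Estimated counts were rounded. Only the 13234 genes that reached a CPM of 1 in 4 or more libraries entered the tests. TMM scaling and a robust quasi-likelihood fit with 1 mean per group over the 16 libraries were run in edgeR 4.0.16 on R 4.3.3, without a replicate block. DOX was compared with DMSO at each time, and DMSO between the times, by glmTreat against a change of 1.2-fold. The difference of the DOX effects was tested by glmQLFTest without a threshold. Tests were two-sided, and calls needed a Benjamini-Hochberg adjusted p under 0.05 over the genes tested. As SE, the absolute log2 fold change over the root of its quasi-likelihood F statistic is given. Log2 CPM used a prior count of 2. TPM of each member was compared by an exact permutation test over 70 arrangements. The fit and the permutation test were tested on simulated data.

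All 9 members are named. Of each list of related genes, up to 3 genes per direction called at 6 days with the highest absolute log2 fold change are named, and for likeness the 3 nearest genes of each member and the 10 nearest of Asns. The members and the lists were chosen with earlier results of these data known. Some genes first listed are not reported here, and the counts of the lists leave them out. Alternatives were DESeq2 1.42.0, limma 3.58.1 on log2(TPM + 1), DESeq2's size factors, other filters and thresholds, a fit without robust estimation, length and GC offsets, the replicate block, the 8 libraries of a comparison alone and leaving out each library.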

Additional observations from a re-analysis of the deposited data

Results flagged for a closer look

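In 5 of 72 groups of 4 values (9 genes, 4 groups, CPM and TPM), 1 library lay farther from the others than Dixon's 95% critical value allows, where chance flags about 1 in 20 groups. In 3 of them, all in TPM, it was a DOX library numbered 1, and those of 3 and 6 days are different libraries. In that of 3 days Aldh18a1 was at 106 TPM against 88.2 to 91.0 TPM in the others. In that of 6 days Aldh18a1 was at 102 TPM against 131 to 135 TPM, and Gpt2 at 47.2 TPM against 51.5 to 52.3 TPM. In CPM none of these stood out by the same rule. The fourth was Pycr1 in replicate 2 of DMSO at 6 days, at 12.6 TPM against 9.78 to 10.1 TPM, and the fifth Gpt2 in replicate 3 of DMSO at 6 days, at 75.6 CPM against 65.8 to 66.4 CPM.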

How the results depend on the processing

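Between DOX and DMSO, no member changed direction under any alternative at either time, and leaving out any library left 7 members called at 3 days and 8 at 6 days. Only limma on log2(TPM + 1) moved a count by over 1.5 times, to 4 members at 3 days. Between the DMSO groups, 3 members were called without the threshold. With it, 0 were called, also when any library was left out; the fits that left out a library were not run without the threshold here. For the difference between the times, 1 member was called with DESeq2's size factors, with DESeq2, with CPM of at least 1 in all libraries, without robust estimation, and with length and GC offset alone or together with the replicate block, in each Pycr1 except with DESeq2 (Asns, adjusted p = 0.00634). Leaving out 1 library gave 0 to 2: 1 without DMSO 3-day replicate 2 (Pycr1), DOX 3-day replicate 4 (Prodh) or DOX 6-day replicate 1 (Aldh18a1), and 2 without DOX 3-day replicate 1 (Pycr1 and Asns).

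Values that changed sign were all uncalled. Between the DMSO groups they were Prodh with the length and GC offset (0.010, and 0.012 with the block) and Cbs in TPM (-0.023) and without DMSO replicate 2 of either day (fits without 1 library gave -0.096 to 0.080). For the difference between the times they were, in TPM, Cbs (0.38), Cth (0.083), Got1 (0.023) and Glul (0.13); with the length and GC offset, Cth (0.093, and 0.092 with the block) and Gpt2 (-0.061, both with and without the block); and Cbs without the filter (0.019) and in 6 of 16 fits without 1 library (-0.11 to 0.099). In TPM the median of all genes moved by 0.10 in this comparison. The cause was not tested.

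Calls among all genes moved by over 1.5 times with DESeq2 (1019 at 3 days against 1658), TPM (686 and 1295 at 3 and 6 days, 651 for the difference) and other thresholds (5982 and 6702 without one; 183 for the difference with 1.2-fold), and between the DMSO groups from 0 to 6 without the filter. The count for the difference, 2252, was 3788 without DOX 3-day replicate 1, 1493 without DOX 3-day replicate 2, 1370 without DMSO 3-day replicate 4 and 1470 without DMSO 6-day replicate 2. The share of higher calls for the difference was 43.7%, and 55.4% without the filter on low counts.

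Libraries share only a replicate number. Deviations from group means of same-numbered libraries correlated at -0.121 to -0.0955 on average. Single pairs ran from -0.433 (replicate 1 of DMSO at 3 and 6 days) to 0.178 (replicate 2 of DMSO and DOX at 6 days). The main fit therefore has no pairing. The replicate block left 7, 8, 0 and 0 members called in the 4 comparisons and 1570, 2767, 0 and 1768 genes in all. The exact sign-flip test over 4 pairs cannot go below 0.125, nor the permutation test without 1 library below 0.0571, so neither gave a count. On log2(TPM + 1) and log2(TPM + 0.1), 16 of 18 permutation tests reached the smallest p, as on TPM. Groups that do not overlap in TPM stay apart on a log scale, so this is no separate check. Depth limits Cbs most, with 62.6 to 133 counts per library.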

Other observations

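The ratio of estimated count to TPM follows the length of the transcripts that the quantification assigned to a gene. Relative to the median ratio over genes in the same library, Cbs stood at 1.35, 1.46, 1.16 and 1.30 in the DOX libraries of 3 days and at 0.806, 1.16, 0.858 and 1.07 in the DMSO libraries, with libraries 2 of DMSO and 3 of DOX at nearly the same value. The difference of the mean log2 ratio was 0.45, larger in size than in 99.1% of 13083 genes, and it was -0.05 at 6 days. Among the other members it was between -0.06 and 0.09 at both times. CPM put Cbs at 0.751 of the DMSO level at 3 days (edgeR) and TPM at 0.476 (ratio of means), while at 6 days the values were 0.740 and 0.746. Cbs rests on few counts, and transcript-level values were not used here.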
